A study of Mus musculus with 20 samples.

Results

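Hypertrophic cartilage and mineralisation were followed in mouse phalanges through 7 genes, Col10a1, Mmp13, Alpl, Panx3, Pth1r, Mef2c and Phospho1. They were found by symbol, each as 1 row in both deposited count tables, and are 7 of the 23991 genes joined between those tables. All 7 passed the filter of 1 CPM (a count scaled to the size of its library, with TMM factors) in at least 4 libraries, which 14873 genes passed.

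Messenger RNA was sequenced from the segments of digits 1 and 2 of mouse embryos, with 10 libraries at embryonic day 16 (E16) and 10 at embryonic day 17 (E17). In each limb of each stage, 5 phalanges were taken, namely the tip and base of digit 1 (distal and proximal) and the tip, middle and base of digit 2. Every E16 library was a pool of 20 embryos and every E17 library a pool of 10. The labels name no treatment, mutation, strain or sex for any group. Each combination of stage, limb and phalanx held 1 library. The p-values below therefore rest on agreement between libraries matched in all but the factor compared, not on replicate litters, and whether libraries shared embryos is not stated. The effect of stage cannot be told apart from pool size or count table. A whole phalanx holds many tissues, and in bulk RNA fewer cells of a type and less RNA per cell cannot be told apart.

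Cartilage templates of limb bones grow by a sequence in which chondrocytes divide, enlarge and are replaced by bone. Enlarged, or hypertrophic, chondrocytes secrete type X collagen, and as they end their life cycle they and the arriving osteoblasts release matrix-cutting enzymes and mineralise the matrix through vesicles that accumulate phosphate. The timing is set by a loop in which parathyroid hormone-related protein, acting on its receptor, delays hypertrophy, while MEF2 and RUNX factors drive it.

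Library totals were 70871735 to 77361898 counts at E16 and 75278309 to 111204552 at E17. The lowest count of any of the 7 genes in a library was 10, for Mmp13. Summed cartilage matrix transcripts were 1193 ± 499.5 CPM (SD, n = 10) at E16 and 539.4 ± 186.4 CPM at E17. Osteoblast, osteoclast, endothelial, epidermal, myeloid and skeletal muscle markers were detected in every library, and the epidermal ones summed to at least 13419 CPM in each. The forelimb digit 1 proximal libraries of both stages stood apart in skeletal muscle markers, whose summed level was 994.4 CPM at E16 and 3104 CPM at E17 there, against 13.6 to 493.8 CPM in the other 18 libraries. Some results for Mef2c and Pth1r, and some counts of genes called, are also given without these 2 libraries. The other results include them.

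Compared per kilobase of annotated exon, the 7 genes spanned a wide range of levels. The receptor gene Pth1r had the highest median over the 20 libraries, at 35.8 CPM per kb. Alpl followed at 6.45 and Mef2c at 5.41 CPM per kb. The order of these genes depends on the length used, a union of all annotated exons of 4.03 kb for Alpl and 15.7 kb for Mef2c. Which transcript forms were expressed was not tested. Phospho1 and Col10a1 were near each other at 1.19 and 1.18 CPM per kb, with Panx3 at 0.60 and Mmp13 at 0.40 CPM per kb. The spreads of neighbours in this order overlapped; Alpl ranged from 1.59 to 28.9 and Mef2c from 3.63 to 13.3 CPM per kb. The hypertrophic cell product Col10a1 was thus a low transcript in these whole phalanges, at 1.27 to 10.2 CPM.

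The genes also differed in what their variation followed. On the log2 CPM scale, differences between the 5 phalanges accounted for 94.3% of the variance of Alpl, 68.6% of Panx3, 56.8% of Phospho1 and 50.1% of Mmp13. Stage accounted for 24.9% of the variance of Mmp13, 29.8% of Pth1r, 21.6% of Mef2c and 17.7% of Phospho1, and for under 2% of that of Col10a1, Alpl and Panx3. For Col10a1, 64.3% of the variance was left over after phalanx, stage and limb. These log2 values were taken after adding a prior count of 2, which shrinks ratios at low levels. On that scale the largest ratio of highest to lowest library was 41.1 for Mmp13, and the smallest was 2.66 for Pth1r.

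**Figure D1:**
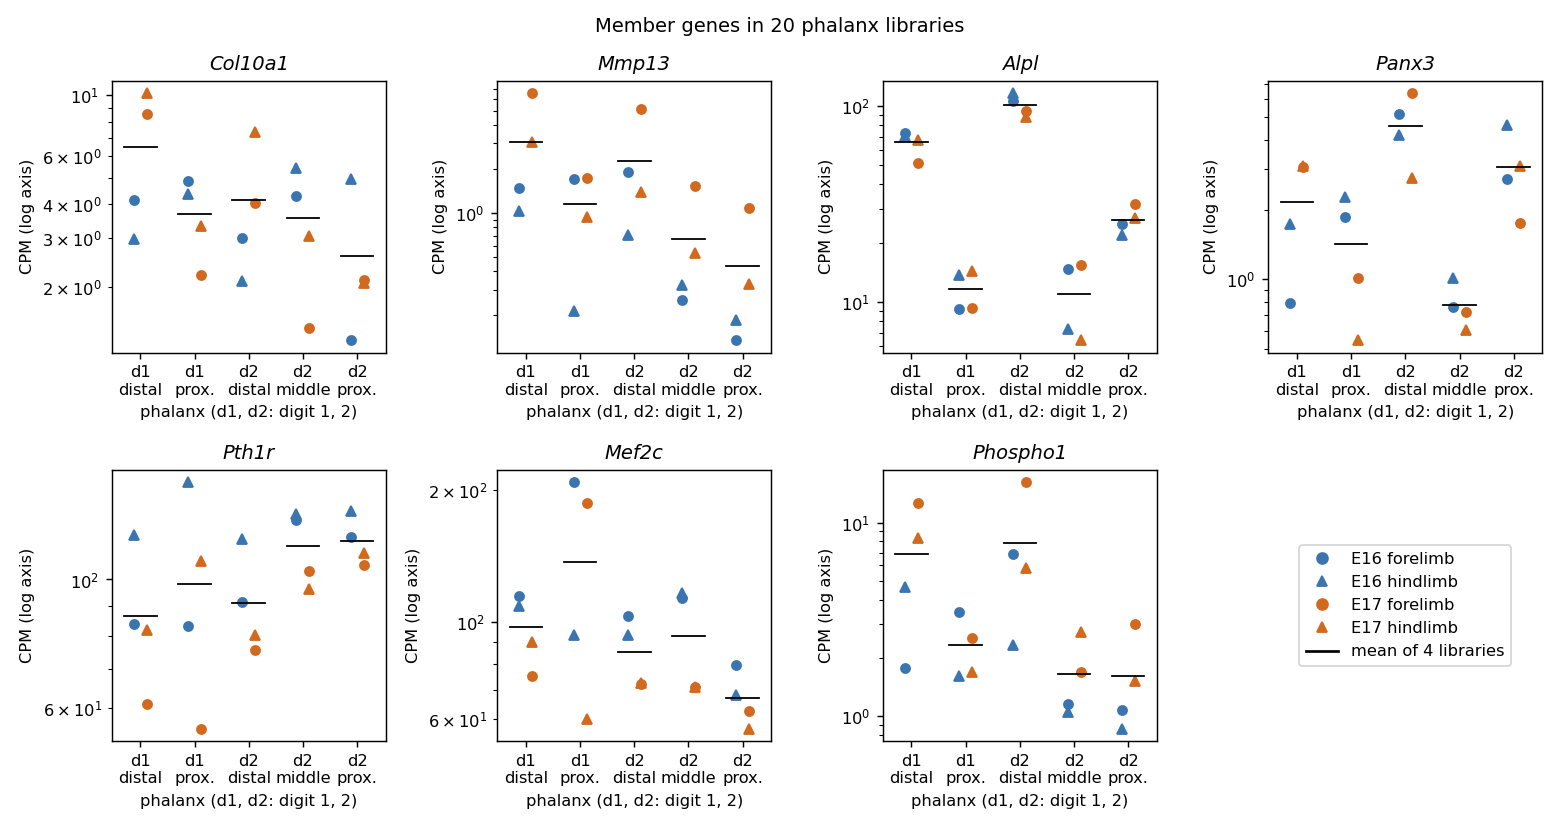
CPM (log axis) of the 7 genes in all 20 libraries, by phalanx, with colour for stage and symbol for limb and a bar at the mean of the 4 libraries of a phalanx. Alpl is higher in every distal library than in any middle or proximal one, while Col10a1 at E17 is high in the distal phalanges and low elsewhere.

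The promoter windows of 4 genes are shown because 3 of them, Mmp13, Alpl and Phospho1, were the members higher in distal phalanges, while Col10a1, the type X collagen gene, did not pass that test. Each run is 300 bases, from 250 bases before to 50 after an annotated start, taken from RefSeq on GRCm38.p6 and written 5′ to 3′ on the gene's strand. Capitals mark 3 motifs searched on both strands, the RUNX core TGTGGT, the AP-1 site TGANTCA and the GC box GGGCGG. The windows lie at chr9:7272264-7272563 (plus strand) for Mmp13, chr11:95824250-95824549 (plus strand) for Phospho1, chr4:137796335-137796634 (minus strand) for the upstream start of Alpl and chr10:34389731-34390030 (plus strand) for Col10a1.
Mmp13: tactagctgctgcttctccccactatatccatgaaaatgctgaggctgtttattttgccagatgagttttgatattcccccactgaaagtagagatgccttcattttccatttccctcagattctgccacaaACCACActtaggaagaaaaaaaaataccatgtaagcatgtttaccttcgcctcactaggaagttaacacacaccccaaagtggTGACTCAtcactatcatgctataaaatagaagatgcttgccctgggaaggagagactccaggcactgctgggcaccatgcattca
Phospho1: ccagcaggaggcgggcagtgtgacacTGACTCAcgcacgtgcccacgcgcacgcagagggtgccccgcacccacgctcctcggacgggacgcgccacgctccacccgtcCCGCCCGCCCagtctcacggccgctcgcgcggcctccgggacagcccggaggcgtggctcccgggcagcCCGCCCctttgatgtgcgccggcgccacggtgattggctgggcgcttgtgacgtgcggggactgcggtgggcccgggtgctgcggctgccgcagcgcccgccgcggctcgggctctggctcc
Alpl: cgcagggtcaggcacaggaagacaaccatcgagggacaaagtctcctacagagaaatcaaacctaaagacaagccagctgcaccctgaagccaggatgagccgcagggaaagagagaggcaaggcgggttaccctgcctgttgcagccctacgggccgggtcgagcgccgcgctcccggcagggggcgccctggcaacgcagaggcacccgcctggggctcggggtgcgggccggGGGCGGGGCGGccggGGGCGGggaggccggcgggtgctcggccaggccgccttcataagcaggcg
Col10a1: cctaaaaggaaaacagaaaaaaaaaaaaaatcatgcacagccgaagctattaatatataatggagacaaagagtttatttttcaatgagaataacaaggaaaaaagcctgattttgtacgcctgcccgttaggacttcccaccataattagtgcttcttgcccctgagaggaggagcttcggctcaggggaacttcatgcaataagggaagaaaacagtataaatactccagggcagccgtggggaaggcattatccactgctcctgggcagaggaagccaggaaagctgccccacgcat
The Mmp13 window holds 1 RUNX core, 118 bases before the start, and 1 AP-1 site, 35 bases before it. The Phospho1 window holds 1 AP-1 site, 224 bases before the start, and 3 GC boxes, of which 2 overlap. The Alpl window also holds 3 GC boxes, 2 of them overlapping, and the window of the second Alpl start holds none of the motifs. No match was found in the Col10a1 window. Over all 32817 windows of the table, 16.8% hold the RUNX core, 7.81% the AP-1 site and 35.6% the GC box, so each of these matches is common. Pth1r and Mef2c have 3 windows each, and another motif, the MEF2 site, which is found in 3.19% of windows, had 1 match in the third Pth1r window, 200 bases before that start. Among those 6 windows, the third of Mef2c held 1 AP-1 site, 137 bases before the start, and GC boxes were found in the second Pth1r window (1), the third Pth1r window (4) and the second Mef2c window (1). These matches describe the letters only.

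The first comparison set distal against proximal phalanges, the tip of the digit against its base. In it 3 of the 7 genes were higher distally, Alpl, Mmp13 and Phospho1, Pth1r was lower, and Col10a1, Panx3 and Mef2c did not pass the test. The test was edgeR's quasi-likelihood F test with Benjamini-Hochberg adjustment over all tested genes and a threshold of 0.05, in a model with terms for phalanx, stage and limb. It called 46.8% of all genes in this comparison, 23.3% higher and 23.5% lower distally, so 4 of 7 is close to the background.

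Alpl encodes tissue-nonspecific alkaline phosphatase, which frees phosphate for mineral by cleaving pyrophosphate. In the distal phalanx of digit 1 it measured 73.4, 70.5, 51.2 and 67.2 CPM in the E16 forelimb, E16 hindlimb, E17 forelimb and E17 hindlimb, and in the proximal phalanx 9.27, 13.8, 9.35 and 14.5 CPM. In digit 2, in the same order, it measured 106.9, 116.5, 94.2 and 87.8 CPM distally, 14.8, 7.30, 15.4 and 6.41 CPM in the middle phalanx and 25.2, 22.0, 31.9 and 26.8 CPM proximally. Every distal library stood above every middle and proximal one. The distal mean was 83.4 ± 21.8 CPM (SD, n = 8) against 19.1 ± 8.53 CPM proximally, a log2 fold change of 2.20 ± 0.18 (SE; edgeR adjusted p = 1.66e-08), and 8 of 8 matched pairs were higher. Of all tested genes, 2.84% had every distal library above every proximal one.

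The order of the phalanges for Alpl was digit 2 distal (101.3 ± 12.8 CPM, n = 4), digit 1 distal (65.6 ± 9.90), digit 2 proximal (26.5 ± 4.15), digit 1 proximal (11.7 ± 2.83) and digit 2 middle (11.0 ± 4.79). The ranges of the distal phalanges of the 2 digits did not overlap, as for 1.24% of all genes in that direction, with digit 1 lower in 4 of 4 pairs, yet the difference missed the threshold (log2 fold change -0.62 ± 0.24, edgeR adjusted p = 0.276). The proximal phalanges differed, with digit 1 lower (-1.16 ± 0.24, edgeR adjusted p = 0.0251), a call lost when any of the 4 forelimb proximal libraries or the E17 hindlimb digit 2 proximal one was left out (edgeR adjusted p from 0.0126 to 0.103 over the 20). Digit 1 proximal and digit 2 middle overlapped and differed by 0.13 ± 0.25 (edgeR adjusted p = 0.86).

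Mmp13 encodes collagenase 3, which cuts the collagen of the late hypertrophic zone and is also made by osteoblasts. At E16 it measured 1.50, 1.04, 1.90 and 0.71 CPM in the distal phalanges of forelimb digit 1, hindlimb digit 1, forelimb digit 2 and hindlimb digit 2, against 1.70, 0.21, 0.14 and 0.19 CPM in the matching proximal ones. At E17 the same distal phalanges gave 6.58, 3.05, 5.12 and 1.40 CPM and the proximal ones 1.74, 0.95, 1.08 and 0.33 CPM. The distal library was the higher of the pair in 7 of 8, the exception being E16 forelimb digit 1, and the groups overlapped. The log2 fold change was 1.85 ± 0.30 (edgeR adjusted p = 5.55e-05), with means of 2.66 ± 2.12 CPM distally and 0.79 ± 0.67 CPM proximally (SD, n = 8).

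Phospho1 encodes the phosphatase that releases phosphate inside matrix vesicles. At E16 it measured 1.78, 4.64, 6.90 and 2.32 CPM in the distal phalanges, in the order used for Mmp13, against 3.47, 1.61, 1.08 and 0.86 CPM proximally. At E17 the distal values were 12.7, 8.35, 16.2 and 5.86 CPM and the proximal ones 2.52, 1.68, 3.0 and 1.52 CPM. The distal library was again higher in 7 of 8 pairs, all but E16 forelimb digit 1, and at E17 the groups did not overlap, as for 14.5% of all genes in that direction. The log2 fold change was 1.78 ± 0.30 (edgeR adjusted p = 0.000104). Phospho1 is also a transcript of red blood cell precursors, so the summed level of 9 red cell genes was taken, a list added after the values were seen. It was 21255 ± 9959 CPM (SD, n = 8) in distal and 8785 ± 2681 CPM in proximal phalanges, and its part in the Phospho1 difference was not tested.

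Pth1r encodes the receptor for parathyroid hormone and its related protein. It ran the other way, with a log2 fold change of -0.27 ± 0.10 (edgeR adjusted p = 0.0314) and lower distal values in 6 of 8 pairs. Its distal libraries lay between 61.1 and 119.2 CPM (median 82.7, n = 8) and its proximal ones between 55.3 and 147.1 CPM (median 109.4), so the groups overlapped widely. The call was lost in 7 of the 20 fits that each left out 1 library (edgeR adjusted p from 0.00361 to 0.086 over the 20). The 7 libraries were 4 distal ones (E16 and E17 forelimb digit 1, E17 hindlimb digits 1 and 2) and 3 proximal ones (E16 and E17 hindlimb digit 1, E17 forelimb digit 2). It was also lost without the filter on low counts (edgeR adjusted p = 0.0547) and within the E16, the E17 or the forelimb libraries alone (edgeR adjusted p = 0.176, 0.15 and 0.12), and passed within the hindlimb (-0.33 ± 0.06, edgeR adjusted p = 0.00148). Without both muscle-rich forelimb libraries the difference was -0.42 ± 0.07 (edgeR adjusted p = 0.000164). Its ligand gene Pthlh was higher distally by 0.97 ± 0.19 (edgeR adjusted p = 0.00044).

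Col10a1 gave a log2 fold change of 0.77 ± 0.35 (edgeR adjusted p = 0.0848), higher in 5 of 8 pairs. Panx3, a pannexin channel gene of prehypertrophic and hypertrophic chondrocytes and osteoblasts, gave 0.67 ± 0.32 (edgeR adjusted p = 0.105), higher in 4 of 8. Mef2c, a transcription factor gene needed for chondrocyte hypertrophy and also a muscle gene, gave -0.04 ± 0.16 (edgeR adjusted p = 0.849). Col10a1 passed with DESeq2 (0.78, adjusted p = 0.0307) and when any of 4 E16 libraries was left out (edgeR adjusted p from 0.0246 to 0.178 over the 20 omissions), namely forelimb digit 1 proximal, hindlimb digit 1 distal, and hindlimb digit 2 distal or proximal. Panx3 passed without E16 forelimb digit 1 distal (edgeR adjusted p from 0.0215 to 0.215 over the 20).

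**Figure D2:**
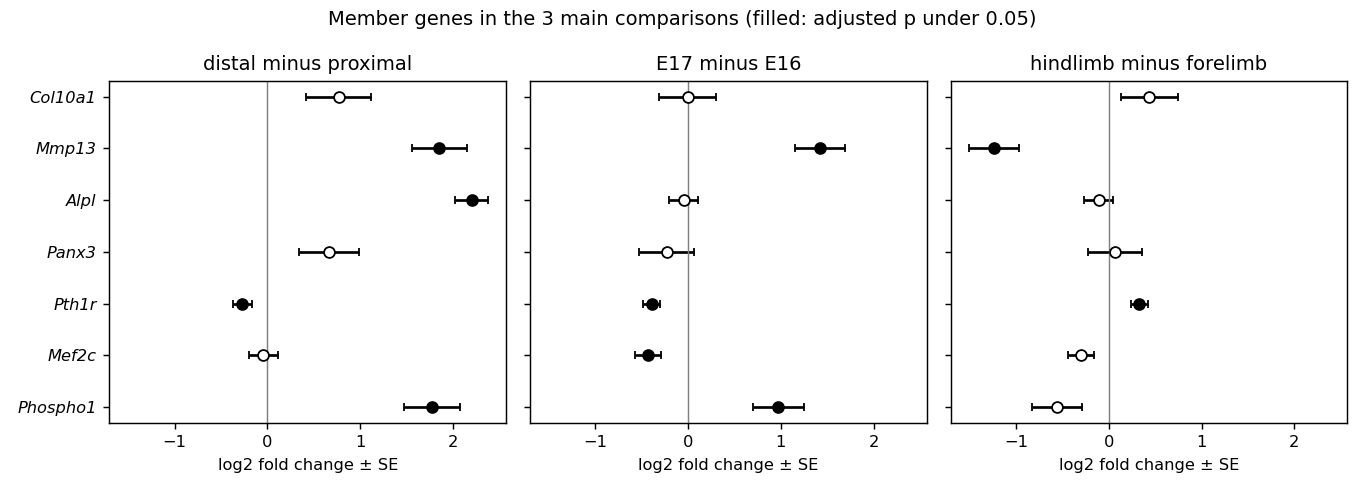
Log2 fold change with its SE for the 7 genes in the comparisons of position, stage and limb, from the edgeR fit over 20 libraries, with filled points for adjusted p under 0.05. Alpl is the highest point for position at 2.20 and lies at -0.05 for stage and -0.11 for limb, while Mmp13 passes in all 3.

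The other hypertrophy and mineralisation genes on the lists behaved unevenly between tip and base. Of 17 tested regulators and signals of hypertrophy, 8 were higher distally and 2 lower, with a median log2 fold change of 0.16 against 0.01 over all genes. The higher ones were the RUNX factor genes Runx2 (2.00 ± 0.13) and Runx3 (1.56 ± 0.24), the homeobox genes Dlx5 (1.81 ± 0.09) and Dlx6 (3.31 ± 0.22), the ligand genes Ihh (2.08 ± 0.69) and Pthlh, the growth-restraining receptor gene Fgfr3 (0.51 ± 0.11) and the oxygen-response gene Hif1a (0.16 ± 0.06). The lower ones were the growth factor genes Fgf18 (-1.18 ± 0.14) and Bmp6 (-1.33 ± 0.18). The edgeR adjusted p of these 10 genes ran from 7.2e-11 for Dlx5 to 0.048 for Hif1a. Ihh was low, at 5.98 ± 6.22 CPM distally and 2.01 ± 3.47 CPM proximally (SD, n = 8).

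Of 13 tested genes for hypertrophic matrix, remodelling and vessel signals, other than the members, 3 were higher distally and 6 lower (median -0.19). The gelatinase gene Mmp9 (1.79 ± 0.19), the bone sialoprotein gene Ibsp (2.15 ± 0.24) and Clec11a (0.73 ± 0.17) were higher. The protease genes Adamts1 (-1.65 ± 0.13) and Mmp14 (-0.59 ± 0.05), the protease inhibitor gene Timp1 (-1.10 ± 0.16), the matrix gene Postn (-1.41 ± 0.12), the cross-linking enzyme gene Tgm2 (-1.68 ± 0.23) and the annexin gene Anxa5 (-0.37 ± 0.04) were lower. Mmp13 and Mmp14, both collagen-cutting enzymes of growing bone, thus passed in opposite directions. The edgeR adjusted p of these 9 genes ran from 1.8e-08 for Adamts1 to 0.0018 for Clec11a.

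Of 11 tested genes for mineralisation and phosphate, other than the members, 6 were higher distally and 3 lower (median 0.32). Smpd3, whose sphingomyelinase is needed for mineral in bone and cartilage, was higher by 2.76 ± 0.35 and the choline phosphodiesterase gene Enpp6 by 3.55 ± 0.71. Enpp6 was a very low transcript. In digit 2 it was at 1.74 ± 0.91 CPM (SD, n = 4) distally and 0.05 ± 0.06 CPM proximally. The carbonic anhydrase gene Car2 (1.08 ± 0.19), the ion channel gene Trpv4 (0.60 ± 0.11), the pyrophosphate-producing Enpp1 (0.44 ± 0.17) and Ank (0.32 ± 0.07), whose product raises pyrophosphate outside the cell, were also higher. The kinase gene Fam20c (-0.93 ± 0.12), the peptidase gene Phex (-1.79 ± 0.27) and the phosphate carrier gene Slc20a1 (-0.17 ± 0.06) were lower. The list therefore held genes that supply phosphate and genes that supply pyrophosphate, an inhibitor of mineral, among those higher distally. The edgeR adjusted p of the named genes of this list ran from 3.8e-06 for Smpd3 to 0.038 for Enpp1.

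Markers of the other tissues moved along the same axis. Of 11 tested osteoblast markers 6 were higher distally and 4 lower. Sp7, the osteoblast transcription factor gene, was at 41.6 ± 18.5 CPM distally and 3.79 ± 1.07 CPM proximally (SD, n = 8) and higher by 3.37 ± 0.20 (edgeR adjusted p = 5.5e-10). Ifitm5 (2.56 ± 0.29) was higher as well, beside Runx2, Ibsp and Smpd3, which are also on the lists above. The abundant matrix genes Col1a1 (-1.02 ± 0.05), Col1a2 (-0.95 ± 0.04), Sparc (-0.89 ± 0.04) and the osteocalcin-family gene Bglap3 (-0.70 ± 0.18, edgeR adjusted p = 0.0043) were lower. Which tissue of the phalanx supplied these transcripts was not tested.

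Cartilage matrix markers were lower distally in 10 of 16 and higher in 0, and 5 tested osteoclast markers gave 1 higher, Mmp9, and 4 lower. The osteoclast genes Acp5 and Ctsk were lower by -0.57 ± 0.13 and -0.91 ± 0.08 on the log2 scale. All 10 endothelial markers were lower, Cdh5 by -0.85 ± 0.05, and 9 of 10 epidermal markers were higher, Krt14 by 0.37 ± 0.10. The part of these tissue differences in the results for Alpl, Mmp13 and Phospho1 was not tested.

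Separate tests in each digit asked whether the difference held in both. In digit 1, 3 of the 7 genes passed, all higher, against 27.0% of all genes in either direction and 12.8% higher. In digit 2, 3 were higher and 1 lower, against 39.3% of all genes, 19.7% higher and 19.6% lower. Alpl was higher distally by 2.47 ± 0.25 in digit 1 and 1.94 ± 0.25 in digit 2 (edgeR adjusted p = 2.4e-06 and 6.41e-06). Mmp13 was higher by 1.29 ± 0.41 and 2.42 ± 0.44 (edgeR adjusted p = 0.0271 and 0.000261), and Phospho1 by 1.36 ± 0.43 and 2.19 ± 0.44 (edgeR adjusted p = 0.0258 and 0.00058). In digit 1 these 2 calls were lost in 6 and 5 of the 20 single omissions (edgeR adjusted p up to 0.0856 and 0.0938), all of digit 1 libraries, the common ones being E16 hindlimb distal, E17 forelimb distal and proximal, and E17 hindlimb distal and proximal, with E16 hindlimb proximal for Mmp13 alone. Pth1r passed in digit 2 (-0.38 ± 0.14, edgeR adjusted p = 0.0392) and not in digit 1 (-0.16 ± 0.14, edgeR adjusted p = 0.43). The digit 2 call of Pth1r was lost in 6 single omissions, those of E16 forelimb distal and proximal, E16 hindlimb distal, E17 forelimb proximal, and E17 hindlimb distal and proximal (edgeR adjusted p up to 0.15). The test of the difference between digits called 0 of the 7 genes and 0.39% of all genes. The Mmp13 estimates differed by -1.13 ± 0.59 (edgeR adjusted p = 0.523), and at an unadjusted p of 0.05 Mef2c alone of the 7 passed (-0.78 ± 0.32).

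Digit 2 has a middle phalanx, which digit 1 lacks, and this phalanx gave the lowest mean levels of Alpl and Panx3. Panx3 measured 0.76, 1.01, 0.72 and 0.60 CPM in the E16 forelimb, E16 hindlimb, E17 forelimb and E17 hindlimb middle phalanges. The distal phalanges gave 5.15, 4.18, 6.35 and 2.75 CPM and the proximal ones 2.71, 4.66, 1.76 and 3.08 CPM, in the same order. Every middle library lay below every distal and proximal library of digit 2, while distal and proximal overlapped. For Alpl every middle library also lay below every distal and proximal library of digit 2, and there distal lay wholly above proximal. Distal libraries lay wholly above middle ones for 8.79% of all genes. Between distal and middle, 4 of the 7 genes were higher distally, against 33.1% of all genes called in either direction and 16.3% higher.

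Panx3 was higher in distal than in middle phalanges by 2.60 ± 0.48 (edgeR adjusted p = 0.000381) and Alpl by 3.22 ± 0.26 (edgeR adjusted p = 1.16e-07). Mmp13 was higher by 1.73 ± 0.43 (edgeR adjusted p = 0.00423) and Phospho1 by 2.04 ± 0.44 (edgeR adjusted p = 0.00145). Between middle and proximal phalanges, where 3.78% of all genes were called and 1.93% were lower in the middle phalanx, Alpl and Panx3 passed, both lower in the middle phalanx and in 4 of 4 pairs. The log2 fold changes were -1.29 ± 0.25 for Alpl (edgeR adjusted p = 0.00551) and -1.96 ± 0.47 for Panx3 (edgeR adjusted p = 0.0241). The middle libraries lay wholly below the proximal ones for these 2 genes, as for 3.23% of all genes. The Panx3 call was lost when any of the 4 middle libraries or either hindlimb proximal library was left out (edgeR adjusted p from 0.00909 to 0.0847 over the 20), while Alpl passed each time. The Panx3 call was also lost with limma voom (-1.94 ± 0.56, adjusted p = 0.0607), and within the E16 or the E17 libraries alone 0 of the 7 genes passed. The share of all genes called in those single-stage fits is not given, so that count is not a result about the 7 genes. Mmp13 gave 0.69 ± 0.44 and Phospho1 0.15 ± 0.43 in this comparison, neither past the threshold. Of the listed genes, 0 of 17 regulators, 2 of 13 matrix and remodelling genes, 1 of 11 mineralisation genes and 1 of 11 osteoblast markers passed, all lower in the middle phalanx. They were Timp1 (-1.62 ± 0.23), Clec11a (-1.37 ± 0.24), Mgp (-0.59 ± 0.10) and Bglap3 (-1.35 ± 0.26), with edgeR adjusted p from 0.000539 to 0.00596.

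The proximal phalanx of digit 1 and the middle phalanx of digit 2 both border a distal phalanx and were compared with each other. None of the 7 genes passed, at a background of 1.85%, and the smallest adjusted p was 0.32 for Mef2c (0.52 ± 0.23). Between distal phalanges of the 2 digits none passed either, at a background of 1.49%. Between proximal phalanges 2 passed, at a background of 1.22%, which were Alpl, given above, and Mef2c (0.98 ± 0.23, edgeR adjusted p = 0.0417). That Mef2c call was lost in 15 of the 20 single omissions (edgeR adjusted p from 0.00307 to 0.158). Its value was 0.18 ± 0.11 (edgeR adjusted p = 0.884) without the 2 forelimb digit 1 proximal libraries.

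The second comparison asked what changed from E16 to E17. Mmp13 and Phospho1 rose, Pth1r and Mef2c fell, and Col10a1, Alpl and Panx3 did not pass. The test called 65.8% of all genes, 32.2% higher and 33.6% lower, so 4 of 7 was no more than the background. Mmp13 was higher at E17 in 10 of 10 matched pairs, with a log2 fold change of 1.42 ± 0.27 (edgeR adjusted p = 0.000157). Its lowest, median and highest libraries were 0.14, 0.52 and 1.90 CPM at E16 and 0.33, 1.46 and 6.58 CPM at E17, so the stages overlapped while every pair moved the same way.

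Phospho1 rose by 0.97 ± 0.27 (edgeR adjusted p = 0.00439) and in 9 of 10 pairs, the exception being forelimb digit 1 proximal. Its range was 0.86 to 6.90 CPM (median 1.69) at E16 and 1.52 to 16.2 CPM (median 2.86) at E17. The summed red cell genes were 9294 ± 3224 CPM (SD, n = 10) at E16 and 17968 ± 10871 CPM at E17. Their part in the Phospho1 rise was not tested.

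Pth1r was lower at E17 in 10 of 10 pairs, by -0.39 ± 0.09 on the log2 scale (edgeR adjusted p = 0.000755), from 114.8 ± 21.7 to 87.8 ± 20.0 CPM (SD, n = 10). Mef2c was lower in 10 of 10 pairs, by -0.43 ± 0.14 (edgeR adjusted p = 0.0124), from 110.0 ± 38.1 to 81.8 ± 38.0 CPM. Within each stage the muscle-rich forelimb digit 1 proximal library was the highest for Mef2c and the lowest for Pth1r. Without both, the Mef2c difference was -0.47 ± 0.06 (edgeR adjusted p = 1.39e-06, 65.1% of all genes called). Skeletal muscle markers rose with stage in 11 of 12, while Mef2c fell.

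Of the genes that did not pass, Alpl had the tightest estimate, -0.05 ± 0.15 (edgeR adjusted p = 0.789), with E17 higher in 5 pairs and lower in 5. Col10a1 gave -0.00 ± 0.31 (edgeR adjusted p = 0.991), also 5 pairs each way, and Panx3 -0.23 ± 0.30 (edgeR adjusted p = 0.505), lower in 7 of 10. The Col10a1 mean was 3.74 ± 1.34 CPM at E16 and 4.43 ± 3.10 CPM at E17 (SD, n = 10).

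Around these genes, 11 of the 17 hypertrophy regulators fell with stage and 1 rose, with a median of -0.43 against -0.01 over all genes. The falls included the early chondrocyte factor gene Sox9 (-1.63 ± 0.12), the repressor gene Hdac4 (-0.60 ± 0.05), whose product binds MEF2 proteins, and Gli3 (-1.14 ± 0.10), a mediator of Hedgehog signalling. Of the matrix and remodelling list 8 of 13 rose and 2 fell, with Ibsp up by 2.45 ± 0.22, Anxa5 up by 0.38 ± 0.04 and Mmp14 down by -0.57 ± 0.04. Of the mineralisation list 3 of 11 rose and 2 fell, with Smpd3 up by 2.63 ± 0.31, Mgp, an inhibitor of calcification, up by 0.32 ± 0.06 and Slc20a1 lower by -0.38 ± 0.05. Osteoblast markers were split at 5 higher and 5 lower of 11, with Bglap3 up by 2.40 ± 0.17 and Sparc by 0.49 ± 0.04 beside Ibsp. Other markers of that list went down, with Col1a1 and Runx2 lower at E17 in 10 of 10 matched pairs and Sp7 in 9 of 10. Cartilage matrix markers fell in 13 of 16, Col2a1 by -1.76 ± 0.14. The edgeR adjusted p was at most 0.00028 for each gene given with a log2 fold change in this paragraph.

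Col10a1 and Panx3 were also compared between tip and base within each stage, though the edgeR test between stages called neither. At E16 Col10a1 measured 4.16, 2.99, 3.02 and 2.10 CPM in the distal phalanges of forelimb digit 1, hindlimb digit 1, forelimb digit 2 and hindlimb digit 2, against 4.85, 4.37, 1.27 and 4.93 CPM in the proximal ones. At E17 it measured 8.56, 10.2, 4.05 and 7.36 CPM distally and 2.21, 3.33, 2.11 and 2.06 CPM proximally. At E17 every distal library was above every middle and proximal library, which lay between 1.41 and 3.33 CPM, and at E16 the groups overlapped. Distal libraries lay wholly above proximal ones for 14.5% of all genes at E17 and 12.6% at E16. Fitted within stages, where 29.9% of all genes were called at E16 and 32.7% at E17, the distal minus proximal difference of Col10a1 was -0.30 ± 0.38 at E16 (edgeR adjusted p = 0.619) and 1.57 ± 0.23 at E17 (edgeR adjusted p = 0.00155).

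Panx3 gave -0.19 ± 0.27 at E16 (edgeR adjusted p = 0.659) and 1.41 ± 0.36 at E17 (edgeR adjusted p = 0.0192). The E17 distal values were 3.05, 3.09, 6.35 and 2.75 CPM in the order used for Col10a1 and the proximal ones 1.02, 0.55, 1.76 and 3.08 CPM, and the groups overlapped through the hindlimb digit 2 pair. The test of the difference between stages called 0 of the 7 genes and 0.215% of all genes. It gave 1.83 ± 0.48 for Col10a1 (unadjusted p = 0.00191, edgeR adjusted p = 0.179) and 1.64 ± 0.50 for Panx3 (unadjusted p = 0.00536, edgeR adjusted p = 0.282). With DESeq2 the Col10a1 difference passed (adjusted p = 0.0118) and with limma voom it did not (adjusted p = 0.178). A stage-dependent tip-to-base difference of Col10a1 and Panx3 is therefore not established over all genes. The corresponding values were 0.21 ± 0.65 for Mmp13, 0.94 ± 0.56 for Phospho1 and -0.47 ± 0.36 for Alpl, none past the threshold.

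**Figure D3:**
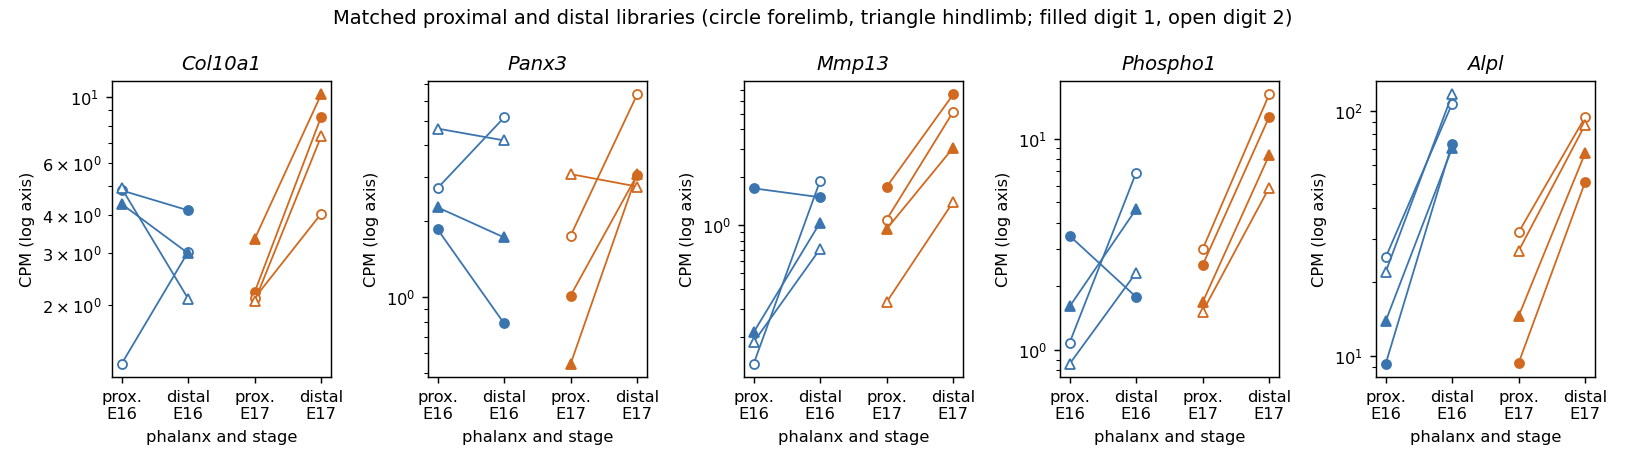
CPM (log axis) of 5 genes in the matched proximal and distal libraries of each stage, with a line per limb and digit. All 4 lines of Col10a1 rise from proximal to distal at E17 and 1 of 4 does at E16, while all 8 lines of Alpl rise.

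The third comparison set hindlimb against forelimb. Mmp13 was lower in the hindlimb and Pth1r higher, and the other 5 genes did not pass, against 21.1% of all genes called, 9.91% higher and 11.2% lower. Mmp13 gave a log2 fold change of -1.24 ± 0.27 (edgeR adjusted p = 0.00457), lower in 8 of 10 pairs, with lowest, median and highest libraries of 0.14, 1.62 and 6.58 CPM in the forelimb and 0.19, 0.62 and 3.05 CPM in the hindlimb. The groups overlapped, and the exceptions were the E16 middle and proximal phalanges of digit 2, where the limbs measured 0.14 to 0.32 CPM. Within stages the difference was -0.90 ± 0.52 at E16 (edgeR adjusted p = 0.266, 9.68% of all genes called) and -1.41 ± 0.24 at E17 (edgeR adjusted p = 0.0472, 1.05% called). The test of that difference gave -0.40 ± 0.55 (edgeR adjusted p = 0.787), in a comparison where edgeR called 0 genes (0.0%), 1815 had an unadjusted p under 0.05, and DESeq2 called 29 and limma voom 0.

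Pth1r was higher in the hindlimb by 0.33 ± 0.09 (edgeR adjusted p = 0.0151) and in 9 of 10 pairs, with a forelimb mean of 90.5 ± 23.4 CPM (SD, n = 10) and a hindlimb mean of 112.2 ± 21.6 CPM. It was 0.36 ± 0.11 within E16 (edgeR adjusted p = 0.0604) and 0.29 ± 0.14 within E17 (edgeR adjusted p = 0.337). Without both muscle-rich forelimb libraries, where 15.3% of all genes were called, it was 0.19 ± 0.06 and did not pass (edgeR adjusted p = 0.0524). Phospho1 gave -0.56 ± 0.27 (edgeR adjusted p = 0.149) and was lower in 8 of 10 pairs, passing only without the E16 forelimb digit 1 distal library (edgeR adjusted p = 0.0435). Mef2c gave -0.30 ± 0.14 (adjusted p = 0.143), Col10a1 0.44 ± 0.30 (0.314), Alpl -0.11 ± 0.15 (0.644) and Panx3 0.07 ± 0.29 (0.883).

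Some matrix and bone genes were lower in the hindlimb, among them Ibsp and Col1a1, while the osteoblast transcription factor genes Sp7 (0.10 ± 0.17, edgeR adjusted p = 0.686) and Runx2 (0.16 ± 0.11, edgeR adjusted p = 0.324) did not pass. Of the matrix and remodelling list 6 of 13 were lower and 0 higher (median -0.31), led by Ibsp (-1.41 ± 0.21), Mmp9 (-0.93 ± 0.16) and Postn (-0.50 ± 0.10). Of the mineralisation list 3 of 11 were lower and 0 higher, Mgp (-0.27 ± 0.06), Phex (-0.79 ± 0.24) and Ank (-0.21 ± 0.06), and of the osteoblast markers 6 of 11, led by Col1a1 (-0.59 ± 0.05), Col1a2 (-0.43 ± 0.04) and Sparc (-0.31 ± 0.04). Of 17 regulators 5 were lower and 1 higher, led by Mef2a (-0.36 ± 0.06), Bmp2 (-0.26 ± 0.06) and Bmp6 (-0.59 ± 0.16). Cartilage matrix markers were higher in 6 of 16 and lower in 2, Col2a1 by 0.65 ± 0.14. The edgeR adjusted p was at most 0.031 for each other gene named in this paragraph. The part of the tissue markers in the Mmp13 difference was not tested.

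Mef2c was the 1 member called when the tip-to-base difference was tested between limbs. It measured 208.6 and 186.7 CPM in the forelimb digit 1 proximal libraries of E16 and E17, against 57.0 to 116.3 CPM (median 77.5) in the other 18. The next Mef2c values down were those of the E16 hindlimb middle and E16 forelimb digit 1 distal phalanges, at 116.3 and 114.5 CPM. The distal minus proximal difference was -0.40 ± 0.09 within the forelimb (edgeR adjusted p = 0.00694, 36.6% of all genes called) and 0.40 ± 0.09 within the hindlimb (edgeR adjusted p = 0.00574, 36.3% called). The test of the difference between limbs gave 0.81 ± 0.13 (edgeR adjusted p = 0.00788), in a comparison that called 1.72% of all genes and no other member. In digit 2 Mef2c was higher distally in 4 of 4 pairs, by 0.20 to 0.45 on the log2 scale, so in both limbs. In hindlimb digit 1 it was also higher distally, at 108.8 against 93.4 CPM at E16 and 90.2 against 59.9 CPM at E17. In forelimb digit 1 it was lower distally, at 114.5 against 208.6 CPM and 75.2 against 186.7 CPM.

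The same 2 libraries were the highest in skeletal muscle markers. Myog, a muscle-determining transcription factor gene, was at 15.7 and 97.4 CPM in them against 0.46 to 25.9 CPM in the others, and Ckm, muscle creatine kinase, at 2.97 and 19.7 CPM against 0.25 to 14.9 CPM. When both libraries were left out, Mef2c was higher distally over both digits by 0.35 ± 0.07 (edgeR adjusted p = 0.000468, 43.4% of all genes called), a reversal of the sign seen with them. That alternative was chosen after seeing the data, and it leaves no forelimb digit 1 proximal library. The difference between limbs over both digits could therefore not be fitted, and digit 2 alone was not tested for it. The part of muscle tissue in the Mef2c values was not tested in any other way.

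**Figure D4:**
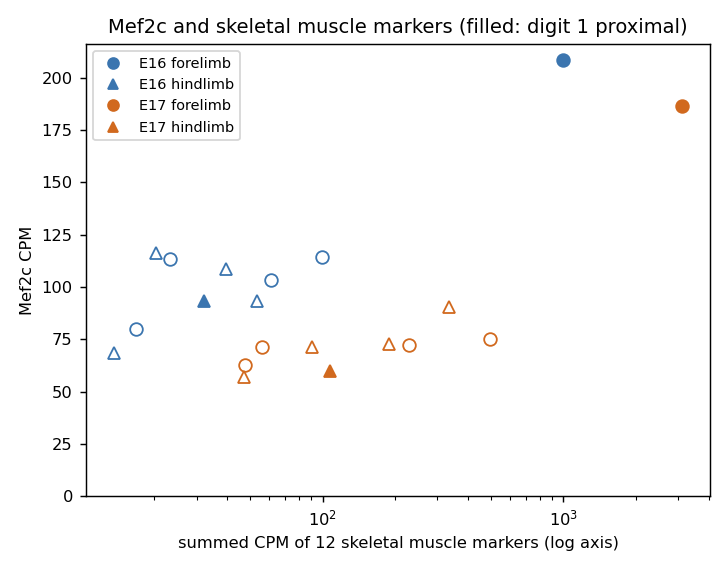
Mef2c CPM against the summed CPM of 12 skeletal muscle markers (log axis) in the 20 libraries, with filled symbols for the digit 1 proximal phalanx. The forelimb digit 1 proximal libraries lie at the top, at 208.6 and 186.7 CPM of Mef2c and 994.4 and 3104 CPM of muscle markers.

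Because cartilage transcripts themselves fell with stage and toward the tip, each gene was also expressed relative to the summed cartilage matrix markers of its library, as the log2 of (CPM + 0.5) over that sum. The difference was tested with a two-sided exact permutation test that flips the signs of matched pairs, adjusted over 21 tests. Relative to cartilage all 7 genes were higher at E17, from 0.65 ± 0.43 (SD, n = 10 pairs) for Mef2c to 2.03 ± 0.50 for Mmp13, with adjusted exact p from 0.0082 to 0.0137. All 7 were also higher distally, from 0.57 ± 0.38 (SD, n = 8 pairs) for Pth1r to 3.01 ± 0.49 for Alpl, with adjusted exact p from 0.0137 to 0.0308, where the smallest unadjusted p that 8 pairs allow is 0.0078. In the hindlimb 3 were lower, Mmp13 (-1.14 ± 0.64, adjusted exact p = 0.0117), Mef2c (-0.67 ± 0.69, 0.0234) and Phospho1 (-0.77 ± 0.91, 0.0338). In the edgeR test of CPM between limbs, Mef2c and Phospho1 did not pass. The limb ratios include the muscle-rich forelimb libraries, where Mef2c was highest. The ratio moves with its denominator, and the cartilage sum was 573.7 ± 288.9 CPM (SD, n = 8) in distal and 1032 ± 553.8 CPM in proximal phalanges. The sum also fell from E16 to E17. Between limbs, Col2a1, which is part of the sum, was higher in the hindlimb in 9 of 10 pairs, while some other cartilage markers were lower there. Pth1r and Mef2c were lower at E17 in 10 of 10 pairs in CPM, yet higher in 10 of 10 as ratios. A higher ratio therefore does not by itself show a rise of the gene. With the osteoblast gene Sp7 as the denominator, all 7 distal minus proximal differences turned negative, from -1.02 for Alpl to -3.46 for Pth1r.

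**Figure D5:**
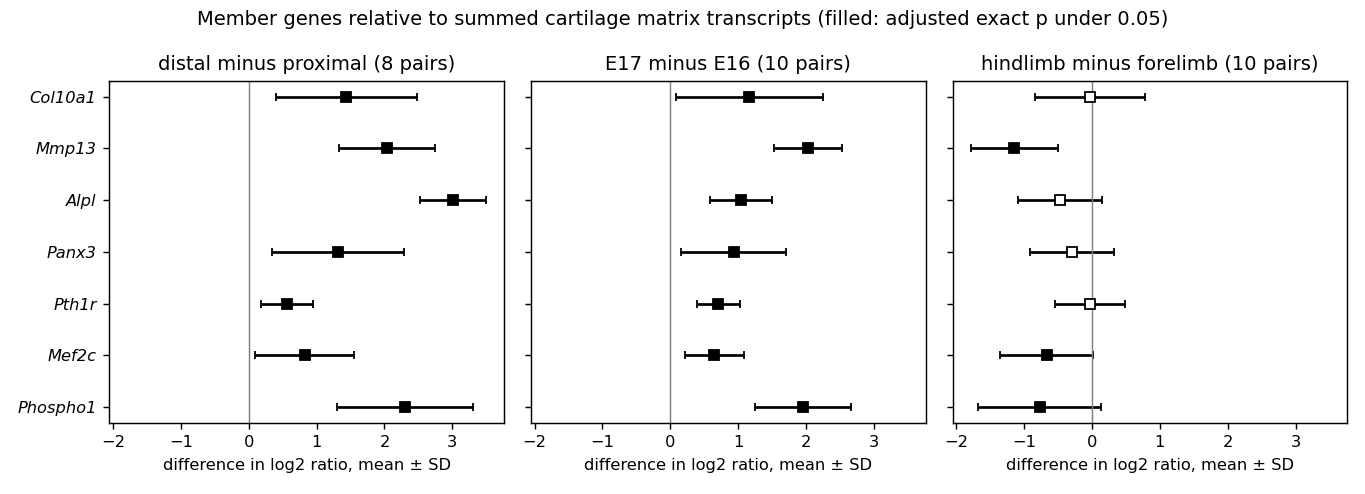
Mean difference in log2 ratio of each gene to summed cartilage matrix transcripts, with the SD over matched pairs, for position, stage and limb, with filled squares for an adjusted exact p under 0.05. All 7 squares are above 0 for position and stage, and Mmp13, Mef2c and Phospho1 are filled below 0 for limb.

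The 7 genes did not share 1 pattern over the libraries. Likeness was measured as Pearson's r of log2 CPM centred within each stage, over 20 libraries that share phalanx types and pools, and is given as a description. Among the members it was highest for Mmp13 with Phospho1 (0.84), followed by Alpl with Phospho1 (0.65) and Alpl with Panx3 (0.64). Pth1r ran against Mmp13 (-0.75) and Mef2c (-0.70). The muscle-rich forelimb libraries, included here, were the highest for Mef2c and the lowest for Pth1r within their stage. By the same measure the muscle gene Myog was at 0.87 with Mef2c and -0.89 with Pth1r. The part of those libraries in these values was not tested. Col10a1 was most like Phospho1, at 0.45.

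Among the 3 genes most like each member over all tested genes, by the same measure, were Asf1a (0.79), Rnf185 (0.74) and Ypel1 (0.71) for Col10a1 and Xpr1 (0.92), Ptp4a1 (0.91) and Nudt4 (0.91) for Mmp13. For Alpl they were Tgfb1 (0.96), Podnl1 (0.96) and Sp7 (0.96), and for Panx3 Gpr85 (0.79) and Trnp1 (0.79). For Pth1r they were C130021I20Rik (0.95), Lmx1b (0.93) and Col23a1 (0.92). For Mef2c they were Srl (0.93), Cdh15 (0.92) and Rbm24 (0.91), and for Phospho1 Rab6a (0.91) and the beta-globin gene Hbb-bs (0.90). The other members were left out of this search.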

How the data were processed

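Per the submitters' processing notes, reads were handled with HISAT2 2.2.1 and StringTie 2.1.7 on GRCm39. The counting step and annotation are not given in the sources used here. The authors deposited a table of whole-number counts for each stage, keyed by gene symbol, and 0 rows lack a symbol. The authors' TMM-normalised tables were not used. The kit named in the labels' protocols is not marked as strand-specific.

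The tables were joined by symbol, with 23932 genes written alike and 59 matched through RefSeq synonyms, which kept 99.0% to 99.5% of the counts of each library. Genes reaching 1 CPM in 4 or more of 20 libraries were tested with edgeR 4.0.16 in R 4.3.3 (TMM, quasi-likelihood F tests, 13 residual degrees of freedom, common biological coefficient of variation 18.5%). Separate fits tested stage by position, stage by limb and limb by position (9, 12 and 9 residual degrees of freedom). Adjusted p-values are Benjamini-Hochberg values over all tested genes within a comparison. Groups were taken from the labels. CPM values are TMM-scaled, and means ± SD run over libraries that differ in the remaining factors. Depth was 70871735 to 111204552 counts a library. Exon lengths are unions of GENCODE M21 exons, and promoters come from the RefSeq table of GRCm38.p6, which has no entry for Panx3.

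The members and the gene lists were chosen with earlier results of these data known. The text names all 7 members in each comparison, list genes that pass for position, the 3 smallest adjusted p per list otherwise, defining tissue markers, and the 3 most like genes per member. A few genes that this rule selects are not reported here. Scripts were tested on simulated counts. The alternatives were other scalings, DESeq2 1.42.0, limma voom (limma 3.58.1), no filter, symbols written alike only, single stages or limbs, other denominators, each library left out, and both forelimb digit 1 proximal libraries left out.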

Additional observations from a re-analysis of the deposited data

Results flagged for a closer look

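Single libraries stood far from the rest of their group in 5 of 84 groups examined, where chance alone flags about 1 group in 20. Among forelimb libraries, Col10a1 was highest in the E17 digit 1 distal phalanx, at 8.56 CPM. Among hindlimb libraries, Mmp13 was highest in the E17 digit 1 distal phalanx, at 3.05 CPM. Among E17 libraries, Panx3 was highest in the forelimb digit 2 distal phalanx, at 6.35 CPM. Mef2c was highest in the forelimb digit 1 proximal library at both stages, at 208.6 CPM at E16 and 186.7 CPM at E17, and these libraries were also the highest in skeletal muscle markers. The distal minus proximal difference of Mef2c differed between limbs by 0.81 on the log2 scale (edgeR adjusted p = 0.00788). That difference, taken over both digits, could not be fitted without those 2 libraries. In digit 2 Mef2c was higher distally in 4 of 4 pairs, in both limbs.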

How the results depend on the processing

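The E17 minus E16 calls of Mmp13, Pth1r, Mef2c and Phospho1, the hindlimb calls of Mmp13 and Pth1r, and the distal calls of Mmp13, Alpl and Phospho1 held in each of the 20 fits that left out 1 library. The Mef2c distal minus proximal difference turned to 0.40 within the hindlimb and to 0.35 without both forelimb digit 1 proximal libraries, for both digits together and for digit 1 alone. With Sp7 as the denominator the distal minus proximal ratios turned to -2.60 for Col10a1, -2.0 for Mmp13, -1.02 for Alpl, -2.71 for Panx3, -3.46 for Pth1r, -3.21 for Mef2c and -1.73 for Phospho1, and 3 of 7 ratios passed for stage and 1 for limb. With Col2a1 as the denominator 5 of 7 passed for limb, against 3. Counts of the 7 genes called moved as follows. The share of all genes called also moved between fits and is not given for each count. The counts are therefore not results about the 7 genes. DESeq2 called 1 for the stage difference in position, against 0. For middle minus proximal, limma voom called 1, E16 alone 0, E17 alone 0, forelimb alone 0 and hindlimb alone 1, against 2, and 1 to 2 with 1 library left out. For the proximal phalanges of the digits, limma voom and no filter called 1 each, and E16, E17, hindlimb alone and the fit without both muscle-rich libraries 0, against 2, with 0 to 2 under single omissions. In digit 1, distal minus proximal gave 1 for E16, 5 for E17 and 5 without both libraries, against 3, and 1 to 3 under single omissions. Distal minus middle gave 2 for E16, against 4. For limb, E16 gave 0 (9.68% of all genes called), E17 1 (1.05%) and the fit without both libraries 1 (15.3%), against 2 (21.1%). Digit 1 proximal minus digit 2 middle gave 2 for the forelimb and 1 for the hindlimb, against 0, with 0 to 1 under single omissions, and the digit difference gave 1 for the forelimb, against 0. Over all genes, DESeq2 called 476 between distal phalanges of the digits against 222, 419 against 181 between proximal ones, 620 against 275 between digit 1 proximal and digit 2 middle, 311 against 58 for the digit difference, 217 against 32 for stage by position (limma voom 19), 29 against 0 for stage by limb and 820 against 256 for limb by position. The single-stage and single-limb fits hold fewer libraries, and for the other settings the cause was not tested. By replicate number, no paired analysis was possible because each group holds 1 library, so that no replicate block can be fitted. The main fit holds phalanx, stage and limb as additive terms and has no term for a matched pair. Its residual is the departure of libraries from those terms. Matched pairs enter the sign-flip test directly. Mmp13 (0.14 to 6.58 CPM) and Panx3 (0.55 to 6.35 CPM) were low genes. Their differences carry SEs of 0.27 to 0.65 in the fits of all 20 libraries.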
